A study of Mus musculus with 6 samples.

Results

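The genes flanking Chrm3 on mouse chromosome 13 were examined in colon tumors of wild-type (WT) and Chrm3-/- mice. Chrm3 encodes the M3 muscarinic receptor, which responds to acetylcholine. A gene was taken as a member when it had a probe on the array and its start in the RefSeq gene table of GRCm38.p6 lay below 30 Mb on chromosome 13, with Chrm3 itself left out. There were 228 such genes among 19031 named genes placed on a chromosome, 30 between the start of the chromosome and Chrm3 and 198 beyond Chrm3. They were read by 366 probes.

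Tumors had been induced with azoxymethane (AOM), a carcinogen of the intestine, in all mice. RNA from 3 WT and 3 Chrm3-/- tumors was hybridized to the Illumina MouseWG-6 v2.2 BeadChip, with 1 array per mouse. By the labels, all 6 mice were 7 months old and of the same mixed strain, 129S6/SvEvTac X CF1 in equal parts, and by the methods they were males. The treatment times in the methods imply a slightly younger age than the labels give. Every cell of a Chrm3-/- mouse lacks the receptor, so the comparison is not one of tumor cells alone, and the number of arrays limits its precision.

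A knockout allele is made in embryonic stem cells of a donor strain, and the DNA around the target stays linked to it through later crosses. Genes next to the target can therefore carry donor variants that controls lack, and a short array probe can read such a variant as a change in level. The nearer a gene lies to the target, the longer crossing keeps it with the allele. The strain origin of chromosome 13 in these 6 mice was not analysed here. The interval beyond Chrm3 holds the main cluster of replication-dependent histone genes, which supply histones while DNA is copied. Most of their mRNAs end in a stem-loop and not in a poly(A) tail.

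Some promoters of these histone genes are shown first, because the H4 genes gave the lowest p-values of the flanking genes. The sequences run 5′ to 3′ on the gene's strand from 250 bases before the start to 50 bases after it, from RefSeq on GRCm38.p6. Capitals mark GGTCCG, part of a promoter element of H4 genes that binds the factor HiNF-P in human cells, and TATAAA, the letters of a common core promoter box, on either strand. H4c6 is at chr13:23551619-23551918 on the minus strand, H4c17 at chr13:21811496-21811795 on the plus strand and H4c18 at chr13:21832148-21832447 on the minus strand.
H4c6: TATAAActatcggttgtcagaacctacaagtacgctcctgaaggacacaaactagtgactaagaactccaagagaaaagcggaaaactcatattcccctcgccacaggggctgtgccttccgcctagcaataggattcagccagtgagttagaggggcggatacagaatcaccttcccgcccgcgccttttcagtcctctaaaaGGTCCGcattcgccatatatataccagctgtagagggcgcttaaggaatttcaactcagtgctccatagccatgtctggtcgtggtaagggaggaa
H4c17: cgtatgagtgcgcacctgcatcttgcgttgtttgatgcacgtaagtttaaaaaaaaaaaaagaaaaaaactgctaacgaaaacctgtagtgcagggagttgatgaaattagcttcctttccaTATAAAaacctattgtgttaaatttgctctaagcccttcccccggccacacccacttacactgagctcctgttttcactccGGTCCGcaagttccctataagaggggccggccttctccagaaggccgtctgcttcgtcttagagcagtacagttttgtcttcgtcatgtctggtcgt
H4c18: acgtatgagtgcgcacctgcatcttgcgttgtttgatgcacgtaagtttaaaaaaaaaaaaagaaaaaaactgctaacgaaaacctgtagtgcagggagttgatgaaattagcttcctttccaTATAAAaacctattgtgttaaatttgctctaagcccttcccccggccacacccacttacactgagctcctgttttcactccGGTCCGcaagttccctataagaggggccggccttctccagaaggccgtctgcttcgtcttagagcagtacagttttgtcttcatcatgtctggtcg
The H4c17 and H4c18 windows are shifted by 1 base and differ at 1 of the 299 bases they share. GGTCCG was present on either strand in 10 of 11 promoters of flanking H4 genes (90.9%), against 8.25% of all 32851 promoters of the same length. In 6 of the 11 it began 46 or 47 bases before the start, and H4c1 had none. It was in 0 of 12 promoters of flanking H2A genes, 0 of 5 of H3 genes, 0 of 6 of H1 genes and 1 of 11 of H2B genes. TATAAA was in 8 of the 11 H4 promoters, and also in 8 of 12 of H2A, 6 of 11 of H2B, 2 of 5 of H3 and 4 of 6 of H1 genes, against 13.6% of all promoters. In the sequences shown, TATAAA lay farther from the start than GGTCCG, and in H4c6 it opened the window. Its position was not examined in the other promoters, so these are counts of letters and not of core promoter boxes. Promoters were matched for 188 of the 228 genes, and the letters searched were chosen after the H4 values had been seen.

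Signals are the authors' normalized intensities on a linear scale, in which values under 2 were read as not above background. Log2 fold changes, also written log2 changes, are Chrm3-/- over WT on the scale of log2(value + 50), which makes those of dim probes smaller. Of the 366 probes, 112 were under 2 on every array. The 169 flanking probes in the brighter part of the array, split at the median of the mean log2 values, were tested with limma, and they represent 119 of the 228 genes, 19 before Chrm3 and 100 beyond it. The other 109 genes were too dim to be tested. A gene was represented by its brightest tested probe.

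Chrm3, which is no member, was read by 1 probe at 9.06, 1.80 and 1.93 on the WT arrays and at 25.1, 32.1 and 21.9 on the arrays labelled Chrm3-/-. Whether this probe lies in the deleted stretch is unknown here, so it checks neither genotype nor labels. All 10 markers of colon epithelium were tested, and their summed signal was 42385 to 57722 on WT and 37083 to 68837 on Chrm3-/- arrays. Chrm3-/- replicate 1 stood apart from the other arrays, with 5.07% of all tested probes over 1 log2 unit beyond the other 5, against at most 1.22% for any other array. It also had the highest summed signals of markers of smooth muscle (42136, against 8298 to 16280), of T and NK cells (3419, against 58.6 to 779) and of absorptive colonocytes (25880, against 2856 to 8019). In bulk tissue, fewer cells of a type and less RNA per cell cannot be told apart.

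None of the 169 flanking probes passed an adjusted p of 0.05 in limma with Benjamini-Hochberg adjustment over all 22641 probes tested, of which 28 passed (0.124%), with 0.0486% higher and 0.0751% lower in Chrm3-/- tumors. The lowest adjusted p was 0.105, for a probe of H4c6. At an unadjusted p under 0.05 there were 15 flanking probes (8.88%) of 12 genes, against 4.82% of all probes tested. Of the 169 flanking probes, 11 were under this p and lower in Chrm3-/- tumors, against 637 of all 22641 probes tested (2.81%). Another 4 of the 169 were higher, against 454 of the 22641 (2.01%). Probes of H4 genes made up 9 of the 15. The genotypes did not overlap on 27 flanking probes (16%), against 10.7% of all probes tested. Without overlap, 8 of the 169 were higher in Chrm3-/- tumors, against 1177 of all 22641 probes tested (5.2%). Another 19 of the 169 were lower, against 1246 of the 22641 (5.5%). With 0.05 replaced by 0.2 as the threshold of the adjusted p, 2 flanking probes passed.

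Over the 119 tested genes the median log2 fold change was 0.01, with 63 genes above 0 and 56 below, and the median absolute log2 fold change was 0.167. The 316 tested genes on the rest of chromosome 13 had medians of 0.01 and 0.145, and the 11749 on other chromosomes had 0.01 and 0.145. Without the histone genes, the 78 remaining flanking genes had a median log2 change of 0.07 and a median absolute value of 0.145. Of the 119 genes, 94 (79.0%) had a 95% interval that lay wholly within 1 log2 unit of 0, as did 78.7% of the tested genes elsewhere. On this scale 3 of the 119 were beyond 1 log2 unit, and these were Akr1c19, Inhba and H4c17.

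**Figure D1:**
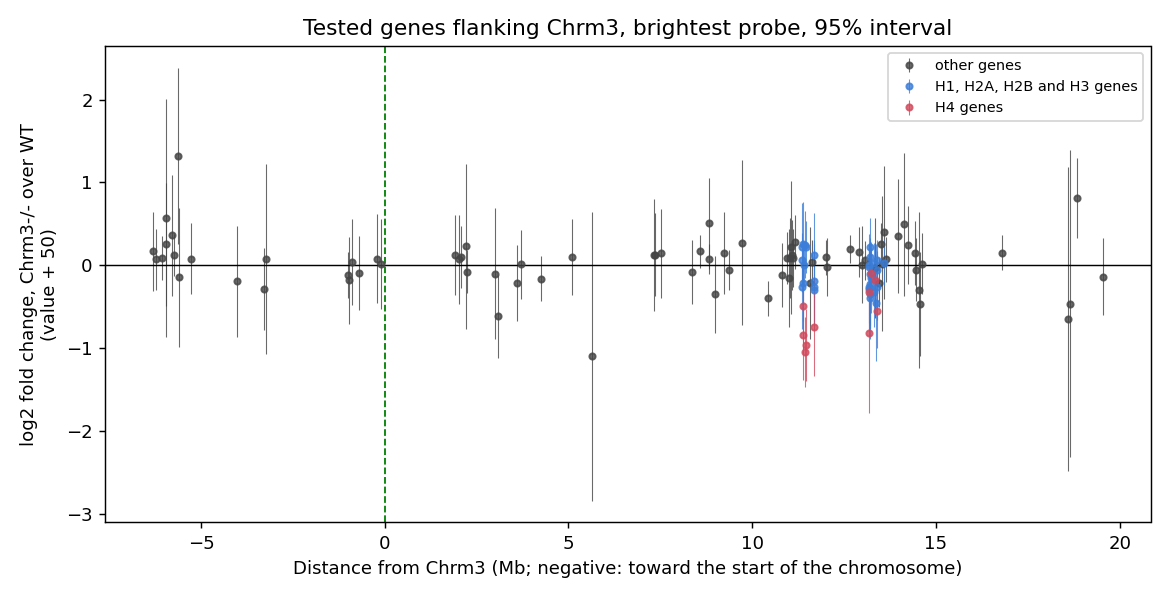
Log2 fold change of each of the 119 tested genes by its brightest probe (y axis, Chrm3-/- over WT, value + 50) against its distance from Chrm3 in Mb (x axis), with the 95% interval of limma as bars; the dashed line is Chrm3. Genes next to Chrm3 lie near 0, and the H4 genes lie below 0 more than 11 Mb away.

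The median difference was no larger among the genes closest to Chrm3. The 7 tested genes within 2 Mb of Chrm3 had a median absolute log2 change of 0.0898. None of their 14 probes separated the genotypes, against 10.7% of all probes tested, and so few probes show little either way. The median was 0.132 for the 12 genes at 2 to 5 Mb, 0.147 for the 23 genes at 5 to 10 Mb and 0.217 for the 77 genes at 10 Mb and more. The last of these bins held 13 of the 15 probes with an unadjusted p under 0.05. The Spearman correlation between distance and absolute log2 fold change was 0.15 across the 119 genes and 0.17 across the 78 without histones, a description over genes of the same 6 arrays that are not independent replicates. The Spearman correlation with mean level was 0.23. The medians rose in the same order on a plain log2 scale and with an offset of 16, whereas with an offset of 200 the genes at 2 to 5 Mb had the highest, 0.115. Within 5 Mb the median was 0.103 over 19 genes, and it was 0.174 without Chrm3-/- replicate 1, 0.170 without Chrm3-/- replicate 2, 0.159 without WT replicate 1 and 0.0643 without WT replicate 3.

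**Figure D2:**
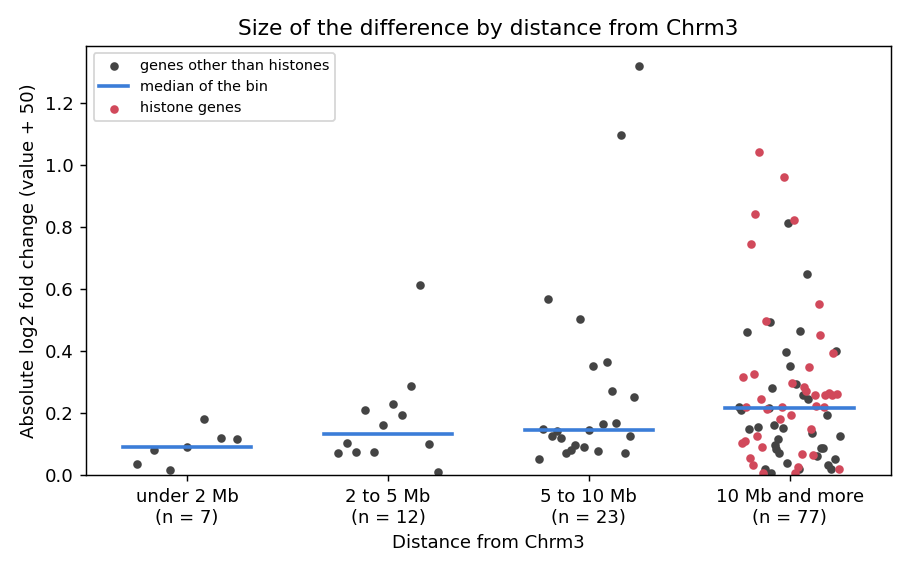
Absolute log2 change of each tested flanking gene (y axis, value + 50) in 4 bins of distance from Chrm3 (x axis), with blue bars for the median of each bin and red points for histone genes. The medians run from 0.0898 under 2 Mb to 0.217 at 10 Mb and more, where all histone genes lie.

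Zmynd11, which encodes a reader of methylated histone H3, lies nearest to Chrm3, 0.109 Mb away. Its brightest probe read 464, 542 and 417 on the WT arrays and 373, 643 and 451 on the Chrm3-/- arrays. The genotypes overlapped, with a log2 change of 0.02 (standard error, SE, 0.23; 95% interval -0.52 to 0.56), and its other 3 tested probes gave 0.12, 0.12 and 0.20. Dip2c, 0.207 Mb away, was dim, at 20.3 to 26.3 in WT and 12 to 62.1 in Chrm3-/- tumors. Larp4b, which encodes an RNA-binding protein, had a log2 change of -0.09 (SE 0.19). Gtpbp4, which encodes a GTPase of ribosome assembly, read 1222 ± 78.9 in WT and 1284 ± 334 in Chrm3-/- tumors (mean ± SD, n = 3 each), a log2 change of 0.04 (SE 0.22). None of these 4 genes separated the genotypes.

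On the far side of Chrm3 the nearest tested genes were Actn2 at 1.91 Mb, Heatr1 at 2.03 Mb, Lgals8 at 2.08 Mb and Ero1b at 2.2 Mb. Actn2 encodes a muscle actinin and was near background, at 1.66 to 17.9 in WT and 2.15 to 32.8 in Chrm3-/- tumors. Heatr1, which acts in ribosome assembly, was brighter, and its probes gave log2 fold changes of 0.07 and 0.00. Lgals8, which encodes a galectin, read 486, 406 and 449 in WT and 512, 487 and 450 in Chrm3-/- tumors, and its 2 probes gave 0.10 and 0.15. Ero1b, which encodes an oxidase of the endoplasmic reticulum, read 20.1 to 43.4 in WT and 1.57 to 123 in Chrm3-/- tumors. The genotypes overlapped in all of them.

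Nid1, 3.08 Mb beyond Chrm3, was the only gene within 5 Mb with an unadjusted p under 0.05. It encodes nidogen, a protein of basement membranes, and read 251, 309 and 226 in WT and 122, 197 and 145 in Chrm3-/- tumors. All 3 Chrm3-/- arrays lay below all 3 WT arrays, with a log2 change of -0.61 (SE 0.21, adjusted p = 0.933 from limma). The summed signal of 7 fibroblast markers was also lower, at 9185 to 10098 in Chrm3-/- against 12435 to 16069 in WT tumors, and its part in this value was not tested.

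The tested H4 histone genes, 11.4 to 13.4 Mb beyond Chrm3, had values of a single sign. This group was formed after its values had been seen. All 14 tested probes of 10 H4 genes had a log2 fold change below 0, from -1.18 to -0.09. Their median was -0.67, against a median of 0.01 for the 119 flanking genes. The dim H4c3 probe passed the filter on mean level only through the WT arrays, so its sign was fixed by the selection. On 9 of the 14 the genotypes did not overlap, all lower in Chrm3-/- tumors, against 5.5% of all probes tested, and none passed the adjusted threshold. The median ranged from -0.81 to -0.45 when any 1 array was left out and was -0.61 without Chrm3-/- replicate 1. It was -0.97 on a plain log2 scale and -0.31 with an offset of 200, and no tested H4 probe was above 0 under any of the offsets. Of fibroblast markers, 6 of 7 also had log2 changes below 0, with summed signals of 9185 to 10098 in Chrm3-/- and 12435 to 16069 in WT tumors. So did 4 of 4 of neutrophils, at 26.3 to 682 and 629 to 2824. In other panels, 9 of 9 tested markers of smooth muscle and 5 of 5 of T and NK cells were above 0. Their sums were highest on Chrm3-/- replicate 1. For smooth muscle they were 42136 there, 10947 and 16280 on Chrm3-/- replicates 2 and 3, and 8298 to 13310 in WT. For T and NK cells they were 3419, then 58.6 and 337, and 275 to 779 in WT. Of absorptive colonocytes 3 of 5 were above 0, of enteroendocrine cells 3 of 4, and of colon epithelium 5 of 10. Of B and plasma cells 3 of 4 were above 0, and of macrophages and of endothelium 2 of 4 each. The part of any of these cell types in the H4 values was not tested.

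H4c6 was read at 136, 118 and 139 in WT and at 18.6, 36.6 and 34.8 in Chrm3-/- tumors by the probe with the lowest p. Its log2 fold change was -1.18 (SE 0.17, 95% interval -1.59 to -0.78, adjusted p = 0.105 from limma). A dimmer H4c6 probe gave -0.88 (adjusted p = 0.259), but the brightest gave -0.32, with WT arrays at 325, 258 and 354 and Chrm3-/- arrays at 190, 278 and 257. The first 2 probes separated the genotypes and the brightest did not.

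H4c17 read 191, 144 and 184 in WT and 59.8, 50.1 and 63.6 in Chrm3-/- tumors, a log2 change of -1.04 (SE 0.18, adjusted p = 0.172 from limma). H4c18, whose promoter is nearly the same, read 213, 191 and 201 in WT and 60.4, 87.8 and 90.6 in Chrm3-/- tumors, a log2 change of -0.96 (SE 0.18, adjusted p = 0.251). In both genes every Chrm3-/- array was below every WT array. A second H4c18 probe gave -0.59, also without overlap (adjusted p = 0.970 from limma). H4c12 (-0.84), H4c9 (-0.75) and H4c1 (-0.55) also separated the genotypes, with adjusted p from limma of 0.736, 0.919 and 0.932. H4c1 was the brightest of them, at 703 ± 107 in WT and 463 ± 67.2 in Chrm3-/- tumors (mean ± SD, n = 3 each), and it is the H4 gene without GGTCCG in its promoter window. H4 genes are related copies and the probe sequences were not checked, so a probe may read several of them and the values per gene are uncertain.

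**Figure D3:**
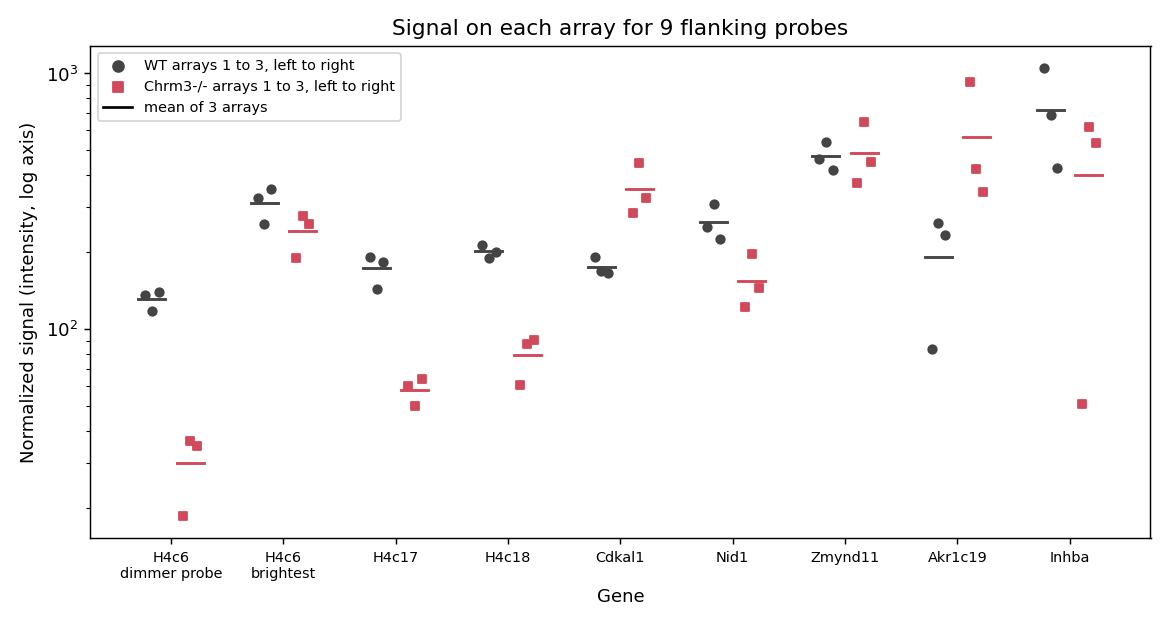
Normalized signal on each array (y axis, intensity on a log scale) for 9 flanking probes (x axis), with circles for WT, squares for Chrm3-/- and lines for the mean of 3 arrays. The H4c6 probe with the lowest p, H4c17, H4c18 and Nid1 are lower and Cdkal1 and Akr1c19 higher on all Chrm3-/- arrays, whereas Zmynd11 overlaps and Inhba is low on Chrm3-/- replicate 1 alone.

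The other histone classes were not tested against H4. In the interval, 16 H2A probes had a median log2 change of 0.11, 13 H2B probes -0.27, 10 H3 probes -0.16 and 4 H1 probes -0.22, and none of these had an unadjusted p under 0.05. H2B probes were below 0 in 12 of 13 and H3 probes in 9 of 10, whereas H2A probes were above 0 in 14 of 16. The brightest, H2ac10, read 11419 ± 897 in WT and 11567 ± 2081 in Chrm3-/- tumors (mean ± SD, n = 3 each), with a log2 change of 0.01. Another probe of H2ac10 gave 0.26. H2ac24 had 0.22 (SE 0.13). The 3 tested H4 probes outside the interval, 2 of them of H4f16, which lies outside the clusters, had a median of 0.02 and were dim, with mean signals of 8.16 to 13.1.

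**Figure D4:**
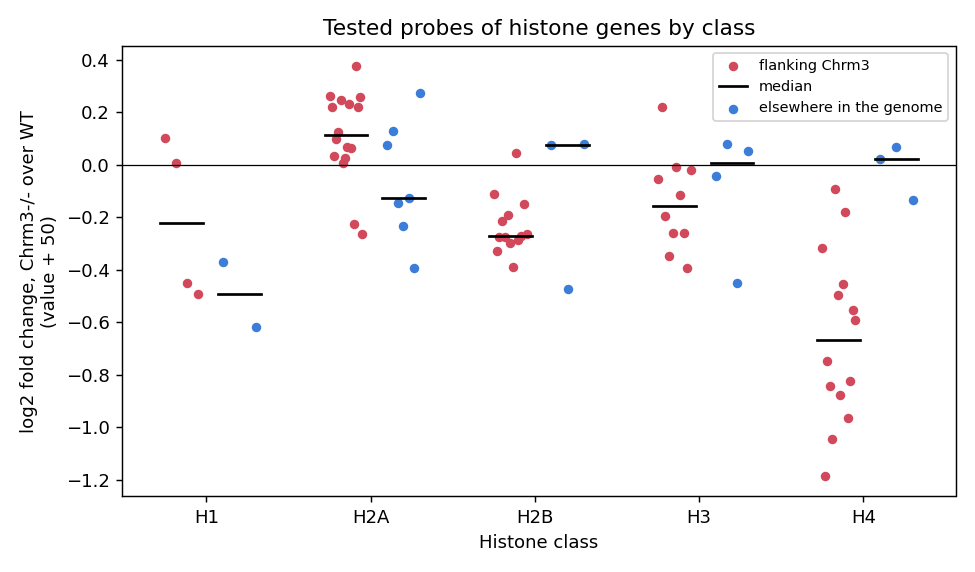
Log2 fold change (y axis, Chrm3-/- over WT, value + 50) of each tested probe of 5 classes of histones (x axis), in red for the genes flanking Chrm3 and in blue for those elsewhere, among them H1f10 and H4f16, which lie outside the clusters, with black lines for medians. All 14 flanking H4 probes are below 0, and the H2A probes center on 0.11.

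Beyond the histones, Cdkal1 had the smallest p of the genes that were higher. It encodes an enzyme that modifies a transfer RNA and lies 18.8 Mb from Chrm3. It read 192, 169 and 166 in WT and 285, 446 and 325 in Chrm3-/- tumors, without overlap, a log2 change of 0.82 (SE 0.20, adjusted p = 0.566 from limma). Aoah, which encodes an enzyme that inactivates bacterial lipopolysaccharide, was dim and lower, at 13.4, 17.8 and 24.7 in WT and 2.2, 1.55 and 1.93 in Chrm3-/- tumors. Its log2 change of -0.40 (SE 0.09, adjusted p = 0.434 from limma) is held small by the offset. It was -3.27 on a plain log2 scale, where values under 2 are not measured levels. The Aoah probe passed the filter on mean level only through the WT arrays, which fixed its direction. The summed signal of 4 neutrophil markers was 629 to 2824 in WT and 26.3 to 682 in Chrm3-/- tumors, and its part in the Aoah value was not tested.

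The aldo-keto reductase genes, which encode enzymes that reduce carbonyl groups of steroids and other substrates, lie before Chrm3. Of 9 genes, 5 were tested, and 4 had values above 0 and 1 below. Akr1c19 had the highest log2 change of all flanking genes, 1.32 (SE 0.45, 95% interval 0.25 to 2.39, adjusted p = 0.932 from limma). It read 83.3, 259 and 235 in WT and 928, 423 and 344 in Chrm3-/- tumors, all 3 above WT, with the highest on replicate 1, and the value without that array was 0.93. Akr1c12 was brighter and overlapped, at 2416 ± 458 in WT and 2347 ± 1235 (SD, n = 3 each) in Chrm3-/- tumors, and again Chrm3-/- replicate 1 was the highest. These genes are similar in sequence, so their probes may read related copies.

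Inhba, which encodes the beta A subunit of inhibins and activins, had a log2 change of -1.10 (SE 0.74). It read 1048, 690 and 427 in WT and 51.1, 619 and 536 in Chrm3-/- tumors, so that the low value was on replicate 1 alone, and it was -0.22 without that array. Of the 169 flanking probes, 9 (5.33%) were over 1 log2 unit beyond the other 5 arrays on Chrm3-/- replicate 1, against 5.07% of all tested probes. Besides Akr1c19 and Inhba, these included Sox4, named here after its values were seen, at 1331, 1484 and 1364 in WT and 180, 1889 and 1690 in Chrm3-/- tumors. Tubal3, Scgn, Cmah, Akr1c14 and Elmo1 were high on this array, and Aldh5a1 was low, and these genes were also named after their values were seen.

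The other groups of the interval gave no probe past the adjusted threshold. Of 12 metabolic enzymes, 7 were tested and 6 had values below 0, including Pitrm1, which encodes a mitochondrial peptidase (-0.29, SE 0.21), and Acot13, an acyl-CoA thioesterase (-0.05). Of 11 nuclear and transcription proteins, 10 were tested with a median of 0.01, and Klf6, a zinc finger transcription factor, had -0.19 (SE 0.28). Of 18 trafficking, cytoskeleton and small GTPase genes, 13 were tested with a median of 0.12, and Net1 had 0.25 (SE 0.31). Psma2, a proteasome subunit, read 8870, 9364 and 8733 in WT and 7390, 8499 and 8245 in Chrm3-/- tumors, without overlap, at a log2 change of -0.16 (SE 0.11). Mrs2, a magnesium channel of mitochondria, had 0.02. Of 8 secreted and matrix proteins, Nid1, Inhba and Lgals8 among them, 5 were tested with a median of -0.03, and the median was -0.07 over the 2 tested genes of the proteasome and mitochondrial group.

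Families of hormones and receptors were mostly near background. Of 23 prolactin family genes 1 was tested, Prl3d3, which was under 2 on all WT arrays and at 12.9, 8.64 and 1.92 in Chrm3-/- tumors. Of 43 vomeronasal and odorant receptor genes 3 were tested, among them Vmn1r200 (-0.02) and Vmn1r213, at 1.93 to 5.28 in WT and 10.1 to 13.3 in Chrm3-/- tumors (log2 fold change 0.20, SE 0.07). Of 4 T cell receptor gamma genes, Trgv4 was under 2 on all WT arrays and at 16, 4.50 and 56.8 in Chrm3-/- tumors, at least 1.40-fold higher on the scale of value + 50 with 2 in place of the WT values, and Trgv7 had 0.07. Prl3d3, Vmn1r213 and Trgv4 passed the filter on mean level only through the Chrm3-/- arrays, so the selection fixed their direction. Among the 3 tested sodium phosphate carriers, Slc17a2, named after its values were seen, was near background and lower without overlap (-0.21, SE 0.12). It read 22.5, 5.93 and 3.09 in WT and 1.03, 1.95 and 2.41 in Chrm3-/- tumors. Slc17a2 passed the filter only through the WT arrays, so its direction was fixed too. Slc17a1 had 0.26 (SE 0.11) and Slc17a4 0.02, both with overlap, and the sign of Slc17a4 turned on a plain log2 scale. All 7 zinc finger genes were tested, with a median of 0.09, 0.13 for Zscan26 and -0.15 for Zscan12. Neither of the 2 butyrophilin genes could be tested.

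Probes of a gene were compared by the difference of their log2 values on each array, in 50 pairs of 38 flanking genes. In 1 pair the difference passed an adjusted p of 0.05 in limma over all 7026 pairs, of which 0.612% passed. This was the H4c6 pair above, at -0.87 (SE 0.14, adjusted p = 0.0419), and it lost the call when any 1 of the 6 arrays was left out, with adjusted p from 0.0577 to 0.223. At an unadjusted p under 0.05 there were 6 pairs of 50 (12%), against 7.86% of all pairs. Next came Cdkal1, whose second probe was near background at 1.31 to 11.4 and had a log2 change of -0.04. In Vps41, a trafficking gene, the probes gave -0.08 and 0.27, and in Stard3nl, an endosomal protein, -0.35 and 0.11, the second from a dim probe.

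The signs of the 2 probes agreed in 36 of the 50 pairs (72.0%), against 68.3% of all pairs. In the 19 pairs with both probes at a mean signal of at least 100 they agreed in 18, against 76.3% of such pairs in all genes, and the Pearson correlation of their log2 fold changes across pairs was 0.85 (0.68 over all 2337 such pairs). The pairs share the 6 arrays, and some share a gene, so these are descriptions.

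**Figure D5:**
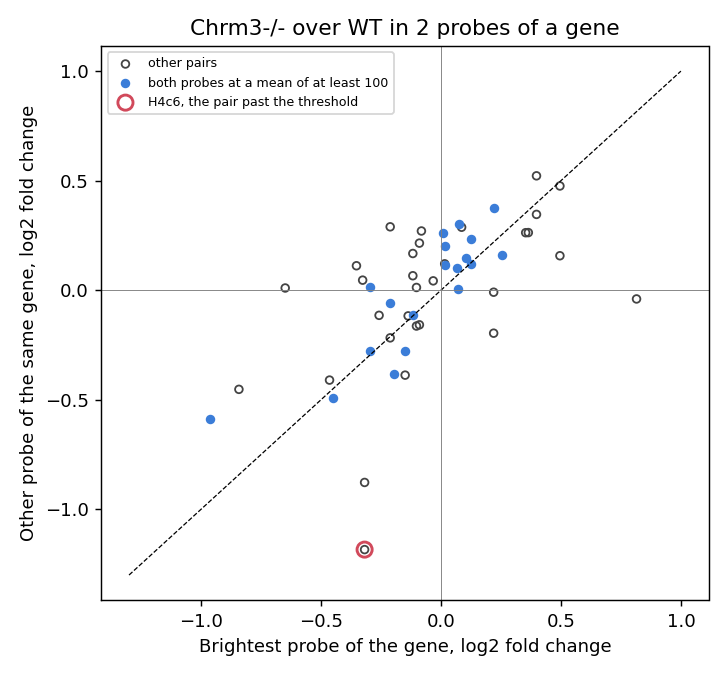
Log2 fold change of the brightest probe of a gene (x axis) against that of another probe of the same gene (y axis) in the 50 flanking pairs, with filled points for pairs with both means at or above 100 and a dashed line of equality. Filled points follow the line, with 18 of 19 of one sign, and the ringed H4c6 pair lies apart.

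Just inside the limit of 30 Mb, A330102I10Rik had a log2 change of -0.46, Cdkal1 0.82 and E2f3 -0.14. Just outside it Mboat1 had 0.14, Uqcrfs1 0.05 and Agtr1a 0.39, the last read at 63.6 on Chrm3-/- replicate 1 and under 2 on the other 5 arrays. On chromosome 13, 4 probes passed the adjusted threshold in limma, all beyond this limit, at 27.7 to 81.4 Mb from Chrm3. Riok1 was at least 6.10-fold higher and Zcchc9 at least 5.44-fold lower in Chrm3-/- tumors on the scale of value + 50, since Riok1 was under 2 on all WT arrays and Zcchc9 on all Chrm3-/- arrays. Each of these probes passed the filter on mean level only through the other genotype, which fixed its direction. The log2 changes were 5.79 for Tmem14c and 2.51 for Tpmt. Other tested probes of these genes gave smaller values, 0.02 for Riok1, 0.84 and 0.74 for Tmem14c, and 0.17 and 0.61 for Tpmt, and none of them passed.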

How the data were processed

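Per the methods, the authors extracted RNA from tumors, had biotin-labelled cRNA hybridized to BeadChips and normalized signals by cubic splines without background subtraction. The deposited intensity values are linear, and each array holds an identical set of values, 45.8% of them evenly spaced under 2. In a table of signals before normalization, 6 columns match no sample and were not used. The aligner and build of the probes are not given in the sources used here.

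Probes were named through the platform annotation (34885 with 1 symbol, 18 with several, 10378 not listed), and probes were placed with the RefSeq gene table of GRCm38.p6, 34803 by Entrez identifier and 45 by symbol. Distance is the gap to the nearer end of Chrm3. The intensities were analyzed as log2(value + 50). Probes with a mean at or above the median, 22641 of 45281, were fitted with genotype alone in limma 3.58.1 (R 4.3.3; lmFit, eBayes with a trend; 4 residual and 2.87 prior degrees of freedom; median standard error 0.19), with two-sided p-values adjusted by Benjamini-Hochberg and a threshold of 0.05. Probe pairs were fitted likewise on differences between probes. Both steps were tested on simulated data. With 3 arrays a group, the smallest p of an exact permutation test is 0.1. Tables were made with Python 3.11.15, pandas 2.3.3 and numpy 2.4.6, and plots with matplotlib 3.10.9.

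The members, gene lists and tests were chosen with earlier results of these data known. Named genes were the 10 flanking genes with the smallest p, the 4 tested genes nearest Chrm3 on each side, the genes with the lowest p of a probe pair, and the 2 brightest of each list; others are said to be chosen after seeing values. The fits were repeated with no offset or another one, with no or a stricter filter, without the trend, with array weights, with the methods' t-test, with the replicate number as a block, with the probes of a gene averaged, at other thresholds and without each array in turn. Labels do not say which mice were littermates, and p-values measure the spread between these arrays.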

Additional observations from a re-analysis of the deposited data

How the results depend on the processing

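No flanking probe passed the adjusted threshold in any alternative run except array weights, where 7 did, and except at a threshold of 0.2, where 2 did. The weights were 6.12 for Chrm3-/- replicate 3 against 0.256 to 1.36 for the other arrays, and their estimation did not converge. With them H4c6 (2 probes), H4c17, H4c18, Aoah, Cdkal1 and Trgv4 passed (lowest limma adjusted p of 0.00735, 0.0183, 0.0248, 0.0473, 0.0459 and 0.0473). Trgv4 had entered the test only through the Chrm3-/- arrays and Aoah only through the WT arrays, so the filter fixed their directions. The methods' t-test gave 17 flanking probes at its unadjusted threshold, 0 after Benjamini-Hochberg adjustment, and 1238 and 9 among all probes.

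Over all probes tested the count of 28 was 44 on a plain log2 scale, 14 with an offset of 200, 12 with no filter, 252 with array weights, 1 with the replicate block and 4 to 31 with 1 array left out. The labels do not say whether the replicate number pairs these mice. Deviations of same-numbered arrays correlated at -0.15, -0.03 and 0.02, and those of different-numbered arrays at -0.14 to 0.15. With 3 arrays a group these values cannot decide it. With the block no flanking probe passed, 8 had an unadjusted p under 0.05 and the H4c6 pair was lost, leaving 0 pairs.

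The 27 flanking probes without overlap were 48 with no filter, 16 with a stricter filter and 39 to 65 with 1 array left out, where fewer arrays overlap less often by construction. The flanking median of 0.01 was -0.0827 on a plain log2 scale, -0.13 with the stricter filter, 0.0726 without the histones and -0.0314 to 0.00715 with 1 array left out. The median absolute value of 0.167 was 0.300 on a plain log2 scale, 0.223 with an offset of 16, 0.0913 with an offset of 200, 0.0590 with no filter and 0.220 with the stricter filter. The pair count of 1 was 0 with an offset of 200, no filter, the stricter filter, the adjusted t-test and each array left out, and 6 at the unadjusted t-test threshold.

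Some of the named genes turned sign, with log2 fold changes in the main fit from -0.19 (Klf6) to 0.25 (Net1). With array weights Zmynd11 was -0.0358, Dip2c -0.0605, Actn2 -0.0293 and Zscan12 0.0137. On a plain log2 scale Ero1b was -0.56 and Slc17a4 -0.61, the latter -0.0276 with an offset of 16. With 1 array left out, ranges spanned 0 in Zmynd11 (-0.18 to 0.17), Dip2c (-0.18 to 0.25), Larp4b (-0.22 to 0.0436), Gtpbp4 (-0.12 to 0.25), Actn2 (-0.0932 to 0.25), Heatr1 (-0.0422 to 0.26), Ero1b (-0.18 to 0.70), H2ac10 (-0.13 to 0.11), Akr1c12 (-0.54 to 0.14), Vmn1r200 (-0.17 to 0.0857), Zscan12 (-0.30 to 0.0801), Slc17a4 (-0.20 to 0.35), Acot13 (-0.15 to 0.0336), Klf6 (-0.52 to 0.0275), Net1 (-0.0346 to 0.47) and Mrs2 (-0.0476 to 0.11). Elsewhere the cause was not tested. Dim probes give only bounds, and 109 of the 228 genes were not tested.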
